A study of Mus musculus with 6 samples.

Results

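The genes described here encode defence proteins of mucosal epithelia whose levels differed widely between replicate arrays of mouse uterus. They were chosen by name, with the values of these arrays known, and every probe set annotated with 1 gene symbol equal to a listed name was taken. Of 10 listed genes, 9 were found, with 11 probe sets, among 18193 genes measured; C3 is not analysed here. Expression arrays were hybridised with labelled cRNA from uterine horns of ovariectomized females, 8 weeks old and of mixed background, all of genotype GATA2 f/f, the usual notation for homozygous floxed alleles. No recombinase is named in the labels. One group of 3 arrays followed oil, a usual carrier for steroids, and the other group of 3 followed P4, the abbreviation of progesterone; the labels used here give no dose, route or time. Separate animals are not stated for the 3 arrays of a group, so their spread may be technical.

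Mucosal epithelia limit microbial growth in several ways. Lactoferrin and lipocalin 2 keep iron from microbes, the S100A8 and S100A9 proteins pair as calprotectin and bind zinc and manganese, complement proteins coat and lyse microbes, and mucins and small proline-rich proteins form barriers. In the mouse uterus several of these genes are known for strong induction by estrogen, among them Ltf and the Sprr2 genes, and ovariectomy removes the main source of that hormone. Ltf, Lcn2, S100a8 and S100a9 are also major products of neutrophils, so bulk tissue does not show which cells hold the transcripts. In bulk samples, moreover, fewer cells of a type and less RNA per cell cannot be told apart.

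The arrays with replicate number 3 stood apart in both groups. Of 18193 genes, 44 were at least 4-fold higher on oil replicate 3 than on either of the other oil arrays, on the log2(intensity + 16) scale used throughout, against 3 for oil replicate 1 and 0 for oil replicate 2. P4 replicate 3 had 30 such genes, P4 replicate 2 had 1 and P4 replicate 1 had 0, while 14 genes were at least 4-fold lower on P4 replicate 1 than on either other P4 array. All 9 defence genes were among the 44 of oil replicate 3, and 6 were among the 30 of P4 replicate 3. Array medians ran from 117 to 123, and the ratio of the 3' to the 5' control probe sets of Gapdh from 1.50 to 2.37, highest on P4 replicate 1. The part of RNA quality in the spread was not tested. Myometrial and uterine epithelial markers were high throughout: Myh11, the smooth muscle myosin, had between 5511 and 7442, and Krt8, an epithelial keratin, between 1779 and 3946. In each result below, a level is an intensity and a difference is on the log2 scale.

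Ltf encodes lactoferrin, the iron-binding protein of secretions. It lies on chromosome 9 (111019292 to 111042766, GRCm38.p6). Its intensity was 252 on oil replicate 1, 357 on oil replicate 2 and 5076 on oil replicate 3, and 206, 596 and 6185 on P4 replicates 1, 2 and 3. Both arrays numbered 3 were thus high, 20.1 times replicate 1 after oil and 30.1 times after P4, and the groups overlapped. Within replicate numbers the P4 to oil ratio of intensities was 0.815, 1.67 and 1.22. The mean difference of 0.24 ± 1.40 (SE, n = 3 arrays per group) was small beside that spread, and it was -1.12 without P4 replicate 3 and 1.58 without oil replicate 3.

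Lcn2 encodes lipocalin 2, which binds bacterial siderophores. It lies on chromosome 2 (32384637 to 32387739). Its values were 502, 549 and 5800 on oil replicates 1 to 3 and 1378, 2135 and 9378 on P4 replicates 1 to 3. Oil replicate 3 was above P4 replicates 1 and 2, so the groups overlapped, yet within each number P4 was the higher, with ratios of 2.74, 3.89 and 1.62. Its mean difference was 1.35 ± 1.01 in the fit without the replicate number, 1.35 ± 0.20 with the number as a block and 1.68 with both arrays numbered 3 left out. Lcn2 was the only one of the 9 genes whose 3 within-number differences all exceeded 0.5.

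S100a8 and S100a9 encode the calprotectin subunits and lie close together on chromosome 3 (90669071 to 90670034 and 90692630 to 90695721). S100a8 had 70.3, 64.3 and 2950 on oil replicates 1 to 3, and 67.6, 3408 and 4860 on P4 replicates 1 to 3. S100a9 had 48.5, 46.5 and 2738 after oil and 38.0, 2556 and 4121 after P4. For this pair 3 arrays were high, namely oil replicate 3, P4 replicate 2 and P4 replicate 3, and the other 3 were below the array median. The P4 to oil ratio was accordingly 0.961, 53.0 and 1.65 for S100a8 and 0.783, 54.9 and 1.51 for S100a9. Their mean differences, 2.03 ± 1.82 and 1.90 ± 1.92, were 0.34 and 0.17 with both arrays numbered 2 left out. Across the 6 arrays the correlation of the pair's log2 values was 0.999, a description over points that share libraries. The S100a8 probe set is of a kind (_s_at) that can match several transcripts.

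**Figure D1:**
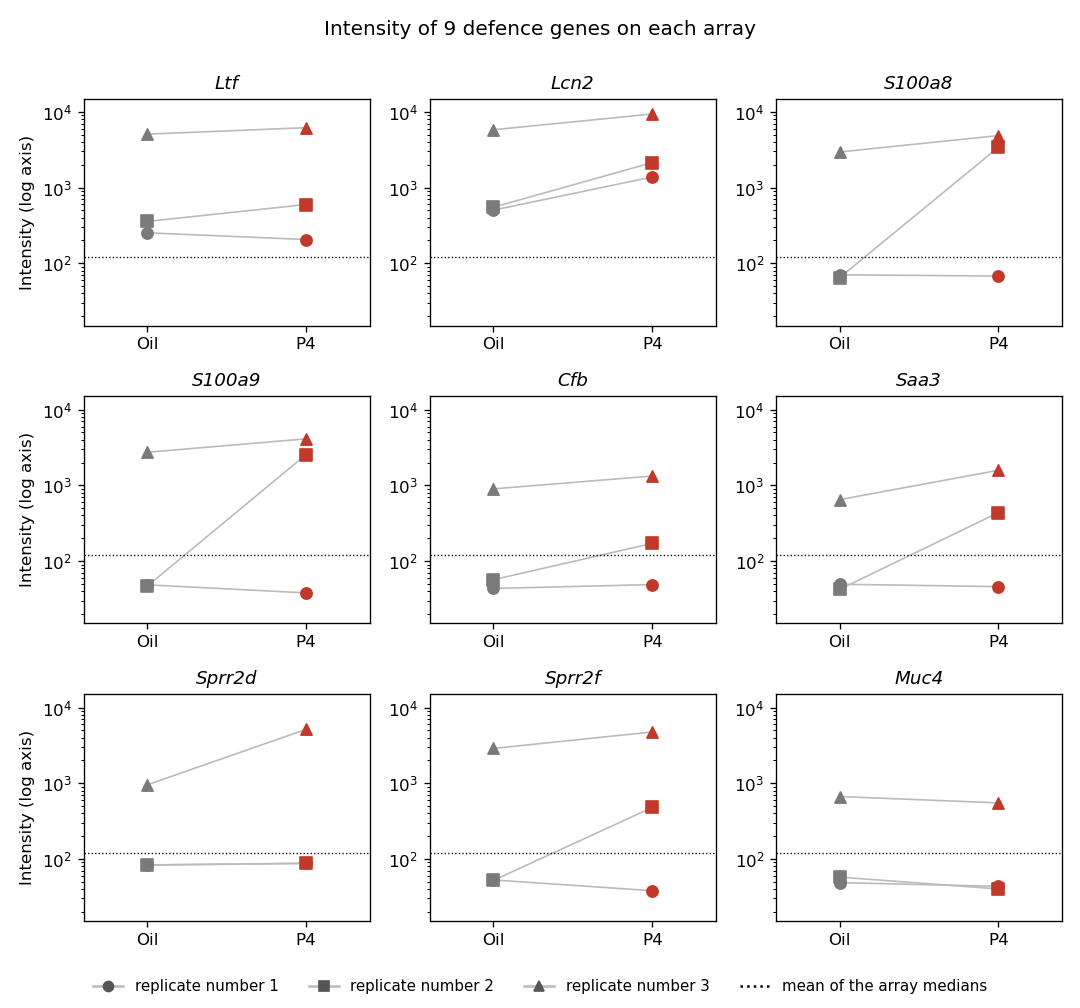
Intensity (log axis) of each of the 9 defence genes on the 3 oil and the 3 P4 arrays; symbols give the replicate number, grey lines join arrays of 1 number and the dotted line is the mean of the array medians. Triangles (number 3) are highest in both groups for all 9 genes, and squares (number 2) rise from oil to P4 most for S100a8 and S100a9, by 53.0 and 54.9 times.

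Cfb and Saa3 belong to the complement and acute phase response. Cfb encodes factor B of the alternative complement pathway (chromosome 17, 34856374 to 34862514). It had 43.4, 56.6 and 899 on oil replicates 1 to 3 and 48.9, 171 and 1329 on P4 replicates 1 to 3. Arrays numbered 3 were high in both groups, P4 replicate 2 was between, and P4 exceeded oil by ratios of 1.13, 3.02 and 1.48. Saa3 encodes serum amyloid A3, a locally made acute phase protein (chromosome 7, 46711998 to 46719615). It had 49.4, 42.2 and 647 after oil and 45.9, 436 and 1585 after P4, with ratios of 0.931, 10.3 and 2.45. For Saa3 P4 replicate 2 was 9.50 times P4 replicate 1, against 3.50 times for Cfb. The groups overlapped for both genes, whose mean differences were 0.68 ± 1.29 and 1.38 ± 1.28; the first was -0.52 without P4 replicate 3.

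The Sprr2 genes encode small proline-rich proteins that are crosslinked beneath the membrane of epithelial cells. Sprr2d and Sprr2f are neighbours on chromosome 3 (92339140 to 92340873 and 92365187 to 92366442). Sprr2d had 83.2, 82.9 and 952 on oil replicates 1 to 3 and 87.4, 87.3 and 5150 on P4 replicates 1 to 3. The other 4 arrays had it at the 39.2 to 41.2 percentile of their probe sets, controls left out, and the groups overlapped. Sprr2f had 52.7, 51.9 and 2881 after oil and 38.0, 478 and 4757 after P4. It shared the high arrays numbered 3 with Sprr2d but was also 12.6 times as high on P4 replicate 2 as on P4 replicate 1, where Sprr2d had a ratio of 0.999. The P4 to oil ratios were 1.05, 1.05 and 5.41 for Sprr2d and 0.721, 9.20 and 1.65 for Sprr2f. Mean differences were 0.85 ± 1.56 and 1.08 ± 1.86, and without P4 replicate 3 they were -1.03 and -0.55. Sprr2 genes resemble each other in sequence, so their probe sets may share signal.

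Muc4 encodes a membrane-bound mucin and lies on chromosome 16 (32735886 to 32782391). Its brightest probe set had 48.6, 57.4 and 667 on oil replicates 1 to 3 and 43.4, 40.0 and 550 on P4 replicates 1 to 3. This probe set, of a kind (_x_at) that can match several transcripts, followed the replicate number. Its P4 values were slightly below oil at each number, with ratios of 0.893, 0.697 and 0.824, and P4 replicate 2 was not raised. A different Muc4 probe set gave 18.1, 28.9 and 220 after oil and 26.1, 17.0 and 196 after P4, high on the same arrays. Its ratios were 1.44, 0.589 and 0.890, so P4 was above oil at number 1. The remaining one had between 20.2 and 32.0 on all 6 arrays and did not follow them. The mean difference of the brightest probe set was -0.26 ± 1.12, and that of the different one high on the same arrays was -0.10.

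The 9 genes therefore shared the arrays numbered 3 and differed on P4 replicate 2. The highest oil array was replicate 3 and the highest P4 array replicate 3 for 9 of 9 genes, where 40.9% and 41.7% of all genes had those arrays highest. Oil replicate 2 had between 0.855 and 1.41 times the intensity of oil replicate 1, so these arrays differed little. P4 replicate 2, in contrast, had 50.4 times the S100a8, 67.3 times the S100a9, 12.6 times the Sprr2f and 9.50 times the Saa3 intensity of P4 replicate 1. The same ratio was 3.50 for Cfb, 2.90 for Ltf, 1.55 for Lcn2, 0.999 for Sprr2d and 0.923 for Muc4. Pearson correlations of log2 values between the genes ran from 0.675 (S100a8 and Muc4) to 0.999 over 36 pairs and 6 arrays, which share libraries.

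**Figure D2:**
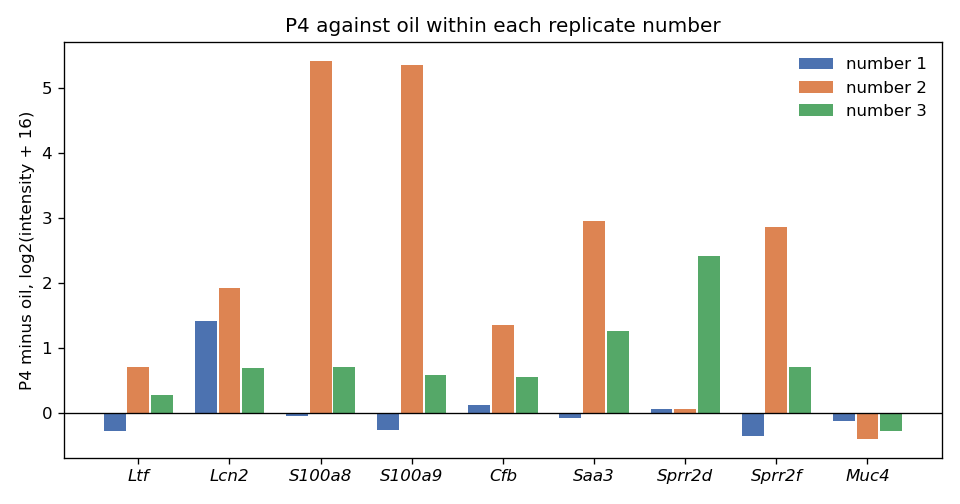
Difference of P4 minus oil in log2(intensity + 16) for each gene (bars, 1 per replicate number, no error bars because each is 1 array against 1). The number 2 bars of S100a8 (5.42) and S100a9 (5.36) stand above the others, Lcn2 is positive at all 3 numbers and Sprr2d differs at number 3 (2.42). The brightest Muc4 probe set, the 1 drawn, is below 0 at all 3.

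Comparing P4 with oil within numbers, P4 was higher for 3 of 9 genes at number 1, 8 of 9 at number 2 and 8 of 9 at number 3. P4 was higher for 47.1%, 46.3% and 49.1% of all genes. After scaling to the hybridisation controls the counts were 4, 8 and 8, S100a8 changing sign at number 1. P4 was at least 2-fold higher for 1 gene at number 1 (Lcn2), 6 at number 2 and 2 at number 3 (Saa3 and Sprr2d). The same held for 1.28%, 1.51% and 0.89% of all genes. Median differences of the 9 genes were -0.08, 1.93 and 0.69. Lcn2, Cfb and Sprr2d were higher after P4 at all 3 numbers, as were 23.8% of all genes, though Sprr2d by only 0.06 at numbers 1 and 2. Saa3, Sprr2f, S100a8 and S100a9 were at least 2-fold higher after P4 at a number and not higher at another, as were 0.286% of all genes, a share the choice of genes used.

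By limma (3 arrays against 3, Benjamini-Hochberg adjusted p under 0.05) 0 of the 9 genes were called (0 also at an unadjusted p under 0.05, beside 26.6% of all genes), beside 13% of all genes. For 0 of 9 the groups did not overlap, beside 31.8% of all genes. With the replicate number as a block 1 of 9 was called, Lcn2, which was higher, beside 20.9% of all genes in either direction and 9.29% higher. Because the genes were chosen on these values, the counts describe them and no test of them is given. The SD within groups ran from 1.73 for Lcn2 to 3.29 for S100a9, where the median of all genes was 0.13. All 9 ranked within the first 30 of 18193 by this SD, S100a9 at 2, Sprr2f at 3, S100a8 at 4 and Sprr2d at 5. The SD of the 3 within-number differences ordered them otherwise. S100a9 (3.03, rank 2) and S100a8 (2.96, rank 3) stayed among the first, Sprr2f had 1.64, Saa3 1.52 and Sprr2d 1.36, and Ltf (0.50, rank 378) and Muc4 (0.13, rank 9402) were far down. The median of all genes for that SD was 0.14.

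Proximal promoters are shown for 4 of the 6 genes with a match to 1 of 2 short motifs, as examples: both with the AP-1 motif, which are neighbours that differed on P4 replicate 2, and 2 with the C/EBP motif. They are from RefSeq, build GRCm38.p6, and hold 250 bases before to 50 bases after an annotated start, printed along the strand of the gene. For Saa3 the window lies inside the gene span given above and not at its outer start (46719615). Of the 9 genes 8 were matched and Cfb was not. Capitals mark matches to TTGCNNAA (C/EBP, a factor family of the acute phase response) or TGANTCA (AP-1), searched on both strands.
Ltf (chr9:111019042-111019341, plus strand): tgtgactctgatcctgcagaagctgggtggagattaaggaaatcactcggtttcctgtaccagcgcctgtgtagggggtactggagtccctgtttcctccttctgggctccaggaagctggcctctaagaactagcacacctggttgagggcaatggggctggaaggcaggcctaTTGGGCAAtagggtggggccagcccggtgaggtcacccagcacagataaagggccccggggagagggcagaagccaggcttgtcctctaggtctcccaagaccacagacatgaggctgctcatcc
Saa3 (chr7:46715627-46715926, minus strand): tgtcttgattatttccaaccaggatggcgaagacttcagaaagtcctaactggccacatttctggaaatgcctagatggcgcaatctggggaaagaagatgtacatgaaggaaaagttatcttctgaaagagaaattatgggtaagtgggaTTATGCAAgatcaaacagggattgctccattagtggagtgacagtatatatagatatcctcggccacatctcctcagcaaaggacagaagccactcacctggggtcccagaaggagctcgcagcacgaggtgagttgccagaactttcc
Sprr2d (chr3:92338890-92339189, plus strand): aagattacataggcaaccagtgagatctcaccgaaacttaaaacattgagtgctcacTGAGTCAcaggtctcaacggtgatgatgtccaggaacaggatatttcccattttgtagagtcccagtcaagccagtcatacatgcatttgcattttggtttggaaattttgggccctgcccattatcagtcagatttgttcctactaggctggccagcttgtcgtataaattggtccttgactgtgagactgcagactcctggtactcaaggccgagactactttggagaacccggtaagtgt
Sprr2f (chr3:92364937-92365236, plus strand): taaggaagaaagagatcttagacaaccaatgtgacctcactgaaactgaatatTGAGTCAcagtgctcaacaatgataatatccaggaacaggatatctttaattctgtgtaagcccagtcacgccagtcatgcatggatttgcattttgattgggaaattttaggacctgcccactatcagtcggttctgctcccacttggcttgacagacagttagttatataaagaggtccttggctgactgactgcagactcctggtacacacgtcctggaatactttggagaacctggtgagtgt
The C/EBP motif was found in 4 of 8 promoters, those of Ltf (from -75), Lcn2 (from -216), Saa3 (from -99) and S100a9 (from -236), and in 10.8% of 32851 promoters of the same length. The AP-1 motif was found only in those of Sprr2d (from -193) and Sprr2f (from -197), 2 of 8, and in 7.81% of all. Positions count from the start used for each window, which for Saa3 is not the outer start of the gene. The Sprr2d and Sprr2f promoters were 73.2% identical in a global alignment, and other pairs of the 8 at most 52.9%. The estrogen response element, the progesterone or glucocorticoid response element, TTCNNNGAA (STAT) and the NF-kappaB consensus were found in 0 of 8, and in 0.07%, 0.475%, 8.3% and 4.51% of all promoters. No promoter held matches to both. A match is a description of letters, and no match says only that they are not in this window.

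Other genes with the same profile were sought by Pearson correlation over the 6 arrays with the mean standardised profile of the 9, among 1284 other genes with a range of at least 1 log2. The 8 most alike, with r from 0.993 to 0.998, were Il1r2, Cd300lf, Slfn4, Pilra, Ccr1, Steap4, Car13 and Clec4d. Il1r2, a decoy receptor of interleukin 1, had 38.8, 32.7 and 251 on oil replicates 1 to 3 and 36.0, 100 and 339 on P4 replicates 1 to 3. Ccr1, a chemokine receptor of myeloid cells, had 25.2, 27.9 and 186 after oil and 20.0, 74.1 and 227 after P4. Steap4, a metalloreductase, had 187, 204 and 1311 after oil and 252, 584 and 1710 after P4. These genes were high on the arrays numbered 3 and intermediate on P4 replicate 2.

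The nearest profile was also sought for each gene alone. Ltf was most like Cp, the copper protein ceruloplasmin (r = 0.997), Lcn2 most like Acod1, which makes itaconate (0.998), and Saa3 most like Fyb (0.998). S100a8 and S100a9 were most like Wfdc21 (0.986 and 0.987), which was at 37.6, 25.6 and 323 after oil and 19.3, 335 and 279 after P4. Muc4 was most like Slc26a4, the anion exchanger pendrin (0.995), at 38.4, 34.8 and 712 after oil and 31.6, 36.5 and 462 after P4. Cfb was nearest to Slfn4 (0.997), Sprr2f to Ccr1 (0.999) and Sprr2d to Clca3b (0.990). High correlations over 6 arrays of which 2 are high are easily reached.

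Of all genes, 25 were at least 4-fold higher on both arrays numbered 3 than on the rest of their group, 6 of the 9 defence genes among them. The other 19 were Acod1, Ccl28, Chil1, Clec4d, Clec4e, Cp, Cxcl2, Cxcl5, Il1b, Il1f6, Klk10, Mmp7, Pglyrp1, Serpinb11, Slc26a4, Slc5a8, Slfn4, Spink12 and Steap1. Those described next were picked from them after the values were seen. Cxcl5, a chemokine that attracts neutrophils, had 17.8, 16.2 and 3121 on oil replicates 1 to 3 and 17.4, 51.5 and 2561 on P4 replicates 1 to 3. Cxcl2, a further such chemokine, had 16.9, 13.7 and 992 after oil and 16.1, 29.2 and 571 after P4. Il1b, the inflammatory cytokine interleukin 1 beta, had 50.8, 61.9 and 1094 after oil and 66.1, 114 and 909 after P4. All 3 were far higher on the arrays numbered 3. Others of the 19 were not chemokines or cytokines. Spink12 had 17.1, 16.9 and 1685 after oil and 18.6, 17.55 and 230 after P4. Klk10 had 36.0, 43.4 and 343 after oil and 37.9, 51.0 and 560 after P4.

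**Figure D3:**
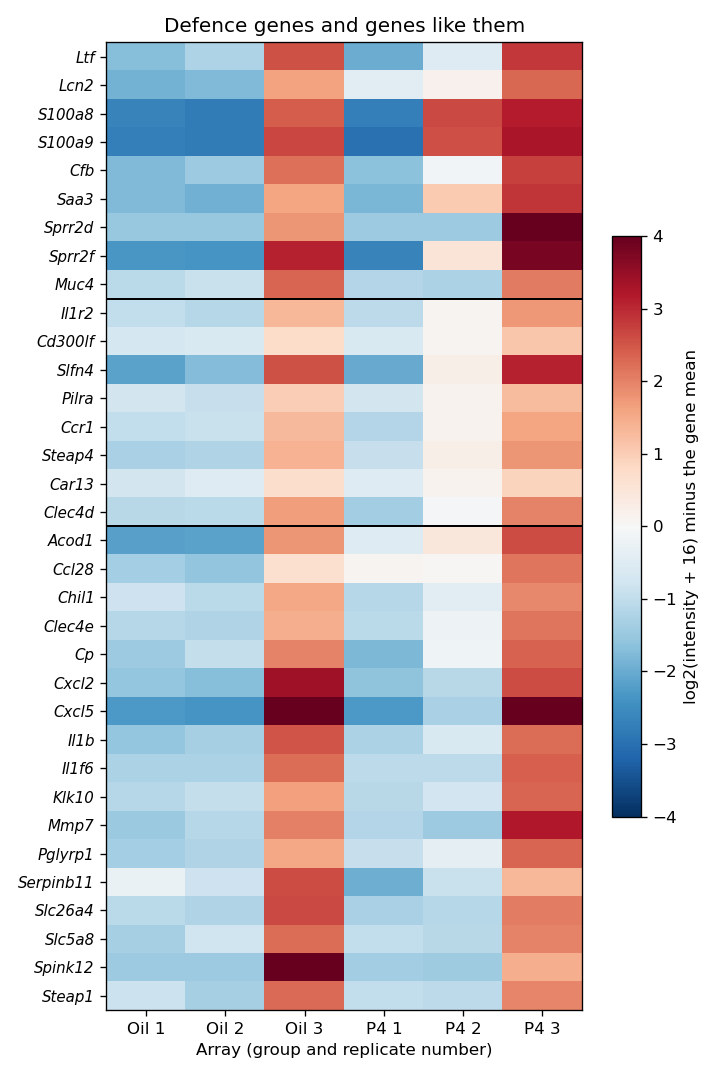
Deviation of log2(intensity + 16) from the gene's mean over 6 arrays (colour, ending at 4 either way) for the 9 defence genes (top), the 8 genes most like their mean profile (middle) and the other genes at least 4-fold higher on both arrays numbered 3 (bottom). The columns of oil replicate 3 and P4 replicate 3 are red in all rows, and P4 replicate 2 is red for S100a8 and S100a9 but blue for Sprr2d and Muc4.

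Related genes of the same pathways and families were compared between P4 and oil as well. Over 143 measured genes of 7 lists limma called 5 higher and 7 lower, beside 6.08% higher and 6.94% lower of all genes (1106 and 1262; 1927 and 624 after scaling to the hybridisation controls), and the median difference was 0.00 against -0.01. With the replicate block the counts were 13 and 18. Members of the lists were chosen with earlier results of these arrays known.

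Of 29 other complement genes, 0 were higher and 2 lower after P4 (0 and 6 with the replicate block), with a median of -0.04. Cd55, which dissociates complement convertases on cells, fell from 320 ± 41.5 to 188 ± 22.4 (SD, n = 3 arrays), a difference of -0.72 ± 0.12 (limma adjusted p 0.00955). Cd59a, which blocks the membrane attack complex, fell from 596 ± 44.2 to 419 ± 25.3 (-0.49 ± 0.09, limma adjusted p 0.012), a call lost without oil replicate 1 (0.0579) or oil replicate 2 (0.0623). With both arrays numbered 2 left out both calls were lost (limma adjusted p 0.113 and 0.176). Neither gene shared the pattern of Cfb: Cd55 had 284, 312 and 365 after oil and 163, 206 and 196 after P4, without overlap. Of the complement genes, 21 of 29 had oil replicate 3 highest among oil arrays, and 21 had P4 replicate 3 highest among P4 arrays. The shares of all genes were 40.9% and 41.7%. C1qa, C1qb and C1qc of this list are also among the macrophage markers below.

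Of 25 other secreted antimicrobial, acute phase and antiprotease genes 0 were called in either direction by limma (3 higher and 2 lower where p was left unadjusted at 0.05, beside 11.9% and 14.7% of all genes; with the block, 4 and 1). Wfdc2, an antiprotease-like protein of epithelial secretions, had 6308 ± 584 after oil and 4841 ± 1152 after P4. Lyz1, a lysozyme whose probe set may share signal with Lyz2, had 2289, 2937 and 5723 on oil replicates 1 to 3 and 1665, 5597 and 4926 on P4 replicates 1 to 3. High arrays were again oil replicate 3, P4 replicate 2 and P4 replicate 3, as for S100a8.

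In the barrier families, Ppl, the cornified envelope protein periplakin, was the 1 gene called of 16 (1 higher and 0 lower; 1 and 1 with the block), at 163 ± 28.2 after oil and 376 ± 153 after P4 (1.07 ± 0.26, limma adjusted p 0.0333). Its call was lost without any 1 oil array or without P4 replicate 2 (limma adjusted p up to 0.0892). Unlike Sprr2d it was lowest on replicate 3 within each group, at 132 and 246. Of the other Sprr genes, Sprr1a had between 35.9 and 61.2 and Sprr3 between 57.3 and 76.5 on the 6 arrays, and Sprr2k had 54.3, 58.9 and 70.8 after oil and 52.1, 56.2 and 83.9 after P4. Of 10 other mucins limma called 0 (0 higher and 1 lower at an unadjusted p under 0.05, and likewise with the block). Muc1, a membrane mucin of the uterine surface, had 301, 328 and 1104 after oil and 153, 154 and 763 after P4. It was high on the arrays numbered 3, like Muc4, and with the block its difference of -0.82 passed (limma adjusted p 0.00258) where it had missed without it (0.526). Muc13, in contrast, was higher after P4 at each number, at 270, 283 and 372 after oil and 319, 316 and 497 after P4. Of 11 other S100 genes limma called 0 (1 higher and 0 lower at an unadjusted p under 0.05, and likewise with the block). S100a6 had 3830 ± 300.1 after oil and 4585 ± 203 after P4. Oil replicate 3 was highest among oil arrays for 9 of the 16 envelope genes, 7 of the 10 mucins and 6 of the 11 S100 genes. P4 replicate 3 was highest among P4 arrays for 10, 6 and 6. All genes gave 40.9% and 41.7%.

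Of 31 genes of the NF-kappaB, interleukin 1 and interleukin 17 response, 1 was higher and 0 lower after P4 (2 and 3 with the block). It was Myd88, an adaptor of Toll-like and interleukin 1 receptors, which rose from 696 ± 76.4 to 2341 ± 663, a difference of 1.70 ± 0.18 (limma adjusted p 0.00169). With both arrays numbered 2 left out its adjusted p was 0.0518. Myd88 had 3104, 1906 and 2012 on P4 replicates 1 to 3 and thus did not follow the defence genes. Nfkbia, the inhibitor of NF-kappaB, had 5136, 4869 and 6141 after oil and 4752, 4365 and 6456 after P4. Within groups 26 of the 31 had oil replicate 3 highest among oil arrays and 22 had P4 replicate 3 highest among P4 arrays. All genes gave 40.9% and 41.7%. The list holds Cxcl5, Cxcl2 and Il1b, already described above for those arrays, so these counts are not independent of that choice. The median of oil replicate 3 minus the mean of the other oil arrays was 0.77 for these genes, 3.80 for the 9 defence genes and 0.02 for all genes.

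Of 21 other genes listed here as induced by estrogen, 3 were higher and 5 lower after P4, beside 6.08% and 6.94% of all genes (5 and 6 with the block). The response of each listed gene to estrogen was not tested. After scaling to the hybridisation controls 5 were higher and 3 lower, so the balance of directions turned. Igf1, a growth factor of the stroma, and Greb1, an estrogen receptor cofactor, were higher, by 1.91 ± 0.18 and 1.42 ± 0.12, and Wnt7a, an epithelial Wnt ligand, was lower (-1.63 ± 0.14). Limma adjusted p values were between 0.000739 and 0.000981, and that of Igf1 was 0.0577 with both arrays numbered 2 left out. Greb1 had 287, 256 and 346 after oil and 830, 878 and 744 after P4. Igf1 had 1441, 1373 and 1510 after oil and 3999, 6024 and 6761 after P4, highest on replicate 3 in both groups, but for both genes the groups did not overlap. The median of oil replicate 3 minus the other oil arrays was 0.10 for this list.

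Summed granulocyte and macrophage markers were high on oil replicate 3, P4 replicate 2 and P4 replicate 3. Not all defence genes shared this, as Sprr2d and Muc4 were not raised on P4 replicate 2. The summed intensity of 16 granulocyte genes, the defence genes left out, was 2821, 3121 and 6124 on oil replicates 1 to 3 and 2167, 5586 and 5150 on P4 replicates 1 to 3, so it was high on the same 3 arrays as S100a8 and S100a9. The brightest of them, Lyz2, which macrophages also express, had 1081, 1487 and 3140 after oil and 817, 2866 and 2457 after P4. Csf3r, the receptor of the granulocyte growth factor, had 63.0, 87.0 and 306 after oil and 64.3, 146 and 323 after P4. Mmp8, neutrophil collagenase, had 14.6, 13.5 and 134 after oil and 20.3, 324 and 99.1 after P4. Ngp, a granule protein, was raised on P4 replicate 2 alone, at 514 against 125 to 160 on the other 5 arrays, as was Camp, at 379 against 77.7 to 101. The granule proteases Elane (171 to 240) and Prtn3 (162 to 248) differed little between arrays, and Ly6g was not measured here. Limma called 1 of the 16, Cxcr4, lower after P4 (-1.22 ± 0.17, limma adjusted p 0.0049). Of the 16 genes 13 had oil replicate 3 highest among oil arrays (81.2%, beside 40.9% of all genes). P4 replicate 3 was highest among P4 arrays for 8 (50%, near the 41.7% of all genes). The range of the sum was 2821 to 6124 after oil and 2167 to 5586 after P4.

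The 11 macrophage genes summed to 2461, 4084 and 6405 after oil and 2248, 5771 and 6954 after P4. Oil replicate 2 was thus above oil replicate 1, where the defence genes differed little. Oil replicate 3 was highest among oil arrays for 10 of 11, beside 40.9% of all genes. P4 replicate 3 was highest among P4 arrays for only 6 (54.5%), beside 41.7% of all genes. The 5 eosinophil genes did not follow, with sums of 171, 198 and 183 after oil and 201, 172 and 223 after P4. Uterine epithelial markers, 15 genes, summed to 19550, 19120 and 22200 after oil and 22560, 15960 and 24040 after P4. The sum was thus highest on number 3 in each group and lowest on P4 replicate 2. Of the 15, 12 (80%) had oil replicate 3 highest among oil arrays. P4 replicate 3 was highest among P4 arrays for 8 (53.3%). Squamous epithelial markers, 12 genes, summed to between 1231 and 1442 on all 6 arrays, and Krt5 had between 100.1 and 115. The part of these cell types in the spread of the defence genes was not tested.

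**Figure D4:**
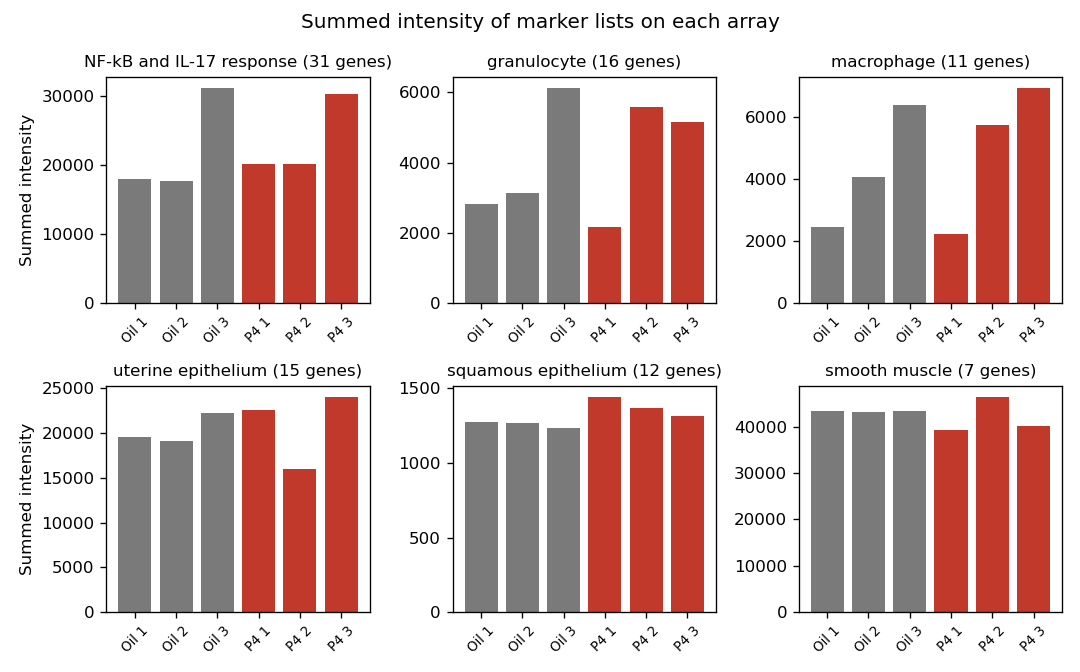
Summed intensity of 6 gene lists on each of the 6 arrays (grey bars oil, red bars P4, axes from 0). The NF-kappaB and interleukin 17 list is highest on the arrays numbered 3, as is the uterine epithelial list within each group. Granulocyte and macrophage sums are high on oil replicate 3, P4 replicate 2 and P4 replicate 3. Squamous epithelial and smooth muscle sums vary little.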

How the data were processed

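Total RNA was labelled with biotin and hybridised to arrays, per the labels' protocols. The authors deposited 1 linear intensity for each probe set on each array; summarisation, background correction and scaling by the authors are not given in the sources used here. Of 45101 probe sets 64 were controls, 34945 had 1 gene symbol in the platform annotation, 932 several and 9160 none. Gene IDs matched for 34741 of the first in a RefSeq table of assembly GRCm38.p6, from which coordinates were taken. Intensities were turned into log2(intensity + 16) without further normalization, and the probe set with the highest mean stood for each of 18193 genes. The files used here give no detection call, so a dim value is given as measured.

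The P4 and oil arrays were compared in limma 3.58.1 (R 4.3.3; eBayes with trend, no covariates, Benjamini-Hochberg over all genes, threshold 0.05), and the script was tested on simulated data. P-values measure only the spread between these arrays. The genes and lists were chosen with earlier results of these data known. Named list genes are up to 3 called, non-overlapping genes per list by size, and otherwise taken from the 2 brightest. Not all genes that this rule gives are described, and genes outside it are given as values.

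Replicate numbers occur in both groups. Same-numbered arrays had deviations from their group means that correlated (r = 0.526, 0.126 and 0.643), all above 0.1, so the replicate block was taken as a paired fit, on the data alone. Oil 2 with P4 1 had 0.287, above the number 2 pair. The calls are from the fit without the block unless the block is named. Alternatives were quantile normalization, median centring, scaling to the hybridisation controls, pseudocounts of 1 and 50, averaged probe sets, no cross-hybridising probe sets, the dimmest 30% left out, the replicate block, and single arrays or numbers left out. Promoters were aligned with Biopython 1.88 and figures drawn with matplotlib 3.10.9. The number of arrays limits precision.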

Additional observations from a re-analysis of the deposited data

How the results depend on the processing

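The P4 minus oil differences of the 9 defence genes stayed within 1 SD of the reported values in all 162 combinations of gene and alternative, since that SD is large. Signs still depended on single arrays: without P4 replicate 3 and without oil replicate 3 the log2 differences were -1.12 and 1.58 for Ltf, -0.52 and 1.95 for Cfb, -1.03 and 1.94 for Sprr2d, -0.55 and 2.88 for Sprr2f, and -1.36 and 0.84 for Muc4. Lcn2 (0.54 to 2.49), Saa3 (0.30 to 2.64), S100a8 (0.34 to 3.90) and S100a9 (0.17 to 3.87) stayed above 0. Lcn2 was called with the replicate block and with both arrays numbered 3 left out, and in no other setting. The choice of genes used these within-number values, so the calls are a description.

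Over all genes 1106 were called higher and 1262 lower. The counts were 1690 and 2111 with the replicate block, 1927 and 624 after scaling to the hybridisation controls, 542 and 512 with both arrays numbered 1 left out, and 99 and 72 with both numbered 2 left out. With both numbered 3 left out 751 were higher and 683 lower, so the balance of directions turned. Leaving out 1 array in turn gave 485 to 1075 higher and 508 to 1227 lower, lowest without oil replicate 2. Of the 143 list genes, 5 higher and 7 lower became 13 and 18 with the block and 2 and 2 with both arrays numbered 2 left out. Quantile normalization and leaving out the dimmest 30% gave 8 higher, scaling to the controls 10 higher, and leaving out both arrays numbered 1 gave 4 lower. Leaving out 1 array in turn gave 3 to 8 higher and 4 to 8 lower. The causes of these changes were not tested. Dim probe sets near array background limit the precision of folds for genes such as S100a9 and Sprr2f.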
